A study of Mus musculus with 6 samples.

Results

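Ribosomal protein messages were examined in RNA that was itself purified on ribosomes, from layer 5 pyramidal cells of mouse cortex. The members are the genes of the cytosolic ribosome, taken as those whose single symbol in the platform annotation reads Rpl or Rps with a number, Rplp0, Rplp1 or Rplp2, or Rpsa, with pseudogenes and the Rps6 kinases left out. Each gene was represented by its probe set of highest mean over the 6 arrays. Of 49 genes matched, 44 reached a mean intensity of 50 in at least 1 treatment group, 23 of the large subunit and 21 of the small subunit, among 10830 genes kept in all. A further 28 ribosomal protein names, among them Rpl3, Rpl5, Rpl10 and Rplp1, stood only on probe sets shared with other symbols and were left out for that reason.

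All mice had the Glt25d2 bacTRAP transgene, line DU9, and came from stock backcrossed for 3 to 5 generations from FVB to C57BL/6. In such mice a gene's regulatory region, here that of Glt25d2 (now Colgalt2), drives a tagged copy of ribosomal protein L10a in chosen cells. Translating ribosome affinity purification (TRAP) of cortex then enriches the messages of those cells, while RNA of other cells can remain in part. The 3 fluoxetine-titled arrays came from mice given 0.167 mg/ml fluoxetine, an antidepressant that blocks serotonin uptake, in 1% saccharine for 15 to 18 days. The 3 vehicle-titled arrays came from mice given 1% saccharine alone. Each array is labelled as a biological replicate, numbered 1, 2 or 3 within its treatment, and no label says how many animals went into 1 purification or what a number stands for. The short description field of every sample names the opposite treatment to its title, source and treatment fields. Were it right, every treatment difference below would change sign, and differences between replicate numbers would stay as they are.

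The cytosolic ribosome has a small subunit, which reads the message, and a large subunit, which joins amino acids and releases the chain through its exit tunnel. Their proteins are made in every cell in matched amounts, and most of their messages begin with a stretch of pyrimidines (the TOP sequence) through which the kinase TOR sets how strongly they are translated. Neurons use this control in growth and in synaptic plasticity.

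The 6 arrays were alike in scale, with median intensities between 23.0 and 23.4. Arrays of equal number resembled each other: the first principal component, 59.99% of the variance, set the arrays numbered 1 apart from the other 4. Colgalt2 and 9 other layer 5 markers were kept, of 11 with a probe set, and Slco2a1 stayed below 50. Markers of other cortical cells were present too: the summed intensity of 14 astrocyte markers lay between 37743 on vehicle array 3 and 63809 on vehicle array 2, and that of 13 oligodendrocyte markers between 22405 and 41750 on the same arrays.

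Ribosomal protein messages had higher median levels on both arrays numbered 1 than on the arrays numbered 2 and 3, in both subunits. Taking each gene's log2 intensity minus its mean over the 6 arrays, the median over the 23 large subunit genes was 0.14 on fluoxetine array 1 and 0.16 on vehicle array 1. It was -0.18 and -0.11 on the fluoxetine and vehicle arrays numbered 2, and -0.075 and 0.070 on those numbered 3. The small subunit followed the same order, with 0.090 and 0.092 on the arrays numbered 1, -0.14 and -0.11 on those numbered 2, and -0.041 and 0.062 on those numbered 3. Vehicle array 3 thus lay between the arrays numbered 1 and the other 3, for either subunit.

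**Figure D1:**
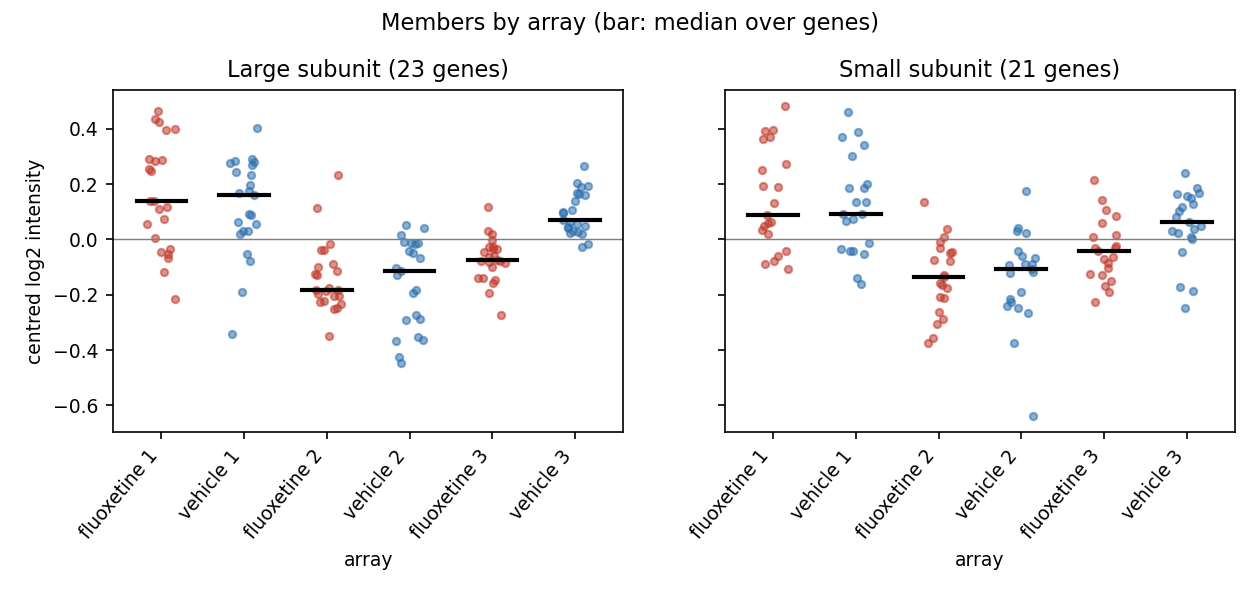
Log2 intensity of each ribosomal protein gene minus its mean over the 6 arrays (vertical axis), by array (horizontal axis), for 23 large and 21 small subunit genes. Points are genes, red for fluoxetine-titled and blue for vehicle-titled arrays, and bars are medians over genes. The bars stand highest on the 2 arrays numbered 1 and lowest on the 2 arrays numbered 2.

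The difference between number 1 and the rest was tested in limma with the title treatment in the fit, as the mean of the 2 arrays numbered 1 minus that of the 4 others. This split was chosen with the first principal component of these data known, so its p-values describe these arrays. The fit also took the arrays as independent, though arrays of equal number resembled each other. Its standard errors and p-values therefore do not measure the spread between numbers, and the p-values may be too small. Of the 44 members, 34 were positive, and their median was 0.19 on the log2 scale, beside 54.5% positive and a median of 0.037 among all genes. The medians were 0.19 (18 of 23 positive) for the large and 0.19 (16 of 21 positive) for the small subunit. Members past an adjusted p of 0.05 numbered 5 higher and 0 lower, which is 11.4% of 44, against a background of 5.92% of all genes called higher and 6.86% called lower. At an unadjusted p under 0.05, 14 members were higher and 1, Rpl13a, lower, with 16.4% and 13.8% of all genes as background. Both arrays numbered 1 lay above all 4 others for 25 members and below them for 3, where 24.4% of all genes lay above and 19.9% below.

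The 5 genes that rose were Rpl41, Rpl11, Rps19, Rps15 and Rps6. Rpl41, which encodes the smallest protein of the ribosome, had intensities of 29537 and 28323 on the fluoxetine and vehicle arrays numbered 1. On the other 4 it had 16828 and 17720 (fluoxetine) and 17546 and 22099 (vehicle). Both arrays numbered 1 were above all others, by a log2 difference of 0.65 ± 0.14 (SE, limma adjusted p = 0.0239).

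Rpl11, whose protein joins the 5S RNA to the large subunit and, when free, binds the p53 regulator Mdm2, had 15640 and 14112 on the arrays numbered 1. It had 10255 and 10557 on the other fluoxetine arrays and 9014 and 11518 on the other vehicle arrays. The groups did not overlap, and the log2 difference was 0.53 ± 0.14 (limma adjusted p = 0.0413).

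In the small subunit, Rps6 encodes the protein that S6 kinases phosphorylate downstream of TOR. Its intensities were 391.3 and 396.0 on the arrays numbered 1, against 244.8 and 272.6 on the fluoxetine and 290.5 and 254.8 on the vehicle arrays numbered 2 and 3. No value overlapped, and the log2 difference was 0.57 ± 0.12 (limma adjusted p = 0.0235). The mean of this probe set, 308.4, was far below those of most members, so the difference is a value of that probe set.

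Rps15, a protein of the head of the small subunit, had 10853 and 10668 on the arrays numbered 1. The other 4 arrays gave 6355 and 7226 (fluoxetine) and 6984 and 8465 (vehicle), all lower, with a log2 difference of 0.58 ± 0.14 (limma adjusted p = 0.0323). Rps19, the gene most often mutated in Diamond-Blackfan anaemia, had 4337 and 3826 against 2421, 2886, 2389 and 3202. Again the groups were separate, with a log2 difference of 0.59 ± 0.16 (limma adjusted p = 0.0482).

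These 5 calls rested on the full set of arrays. With fluoxetine array 1, 2 or 3 or vehicle array 1 left out, 0 members passed, 1 passed without vehicle array 2, and 12 passed without vehicle array 3. The sign of these 5 differences could not turn in any of these fits, because both arrays numbered 1 lay above all others for each gene. The unchanged sign is therefore no further evidence.

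Several other genes had large differences that did not pass. Rps27l, a paralogue of Rps27 that p53 induces, came next to Rpl41 with 0.64 ± 0.23, and a wide spread over the arrays numbered 2 and 3, from 223.0 on vehicle array 2 to 410.8 on vehicle array 3 (limma adjusted p = 0.0967). The log2 difference was 0.51 ± 0.15 for Rpl37 and 0.43 ± 0.17 for Rpl39, whose protein lines the exit tunnel. Rpl22l1, the paralogue of Rpl22, had 0.44 ± 0.14, with 7560 and 7552 on the arrays numbered 1 and 4840 to 6259 on the others. Rpl22 itself had 0.16 ± 0.14. For Rpl7 and its paralogue Rpl7l1 the differences were 0.15 ± 0.12 and 0.16 ± 0.12.

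The stalk proteins, which recruit elongation factors to the large subunit, had differences above the members' median. Rplp2 had a log2 difference of 0.32 ± 0.13 and Rplp0, which anchors the stalk, one of 0.20 ± 0.12. Rpl10a, the gene of the protein that is tagged in bacTRAP mice, had intensities of 15256 and 15169 on the arrays numbered 1 and between 13557 and 14924 on the others. Its difference was 0.10 ± 0.11, with an interval from -0.16 to 0.37. Whether this probe set also reads the message of the tagged copy was not tested. Rps3, at the entry of the message channel, had 0.15 ± 0.11 and Rpl38 had 0.027 ± 0.13.

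At the other end, 10 members had a negative difference and none passed. Rpl13a, often used as a reference gene, had 27703 and 28163 on the arrays numbered 1 and 31803 to 36655 on the other 4, with a log2 difference of -0.30 ± 0.12 (limma adjusted p = 0.127). The 3 other kept probe sets of Rpl13a gave -0.17, 0.014 and 0.046, so its probe sets did not share a sign. Rpl14 had -0.31 ± 0.15, Rps18 -0.18 ± 0.14, Rps25 -0.14 ± 0.14, Rps28 -0.12 ± 0.12 and Rpl8 -0.092 ± 0.12. Rpsa, also known as the laminin receptor, had -0.077 ± 0.12. For Rpl8 and Rpsa the sign turned without vehicle array 1.

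**Figure D2:**
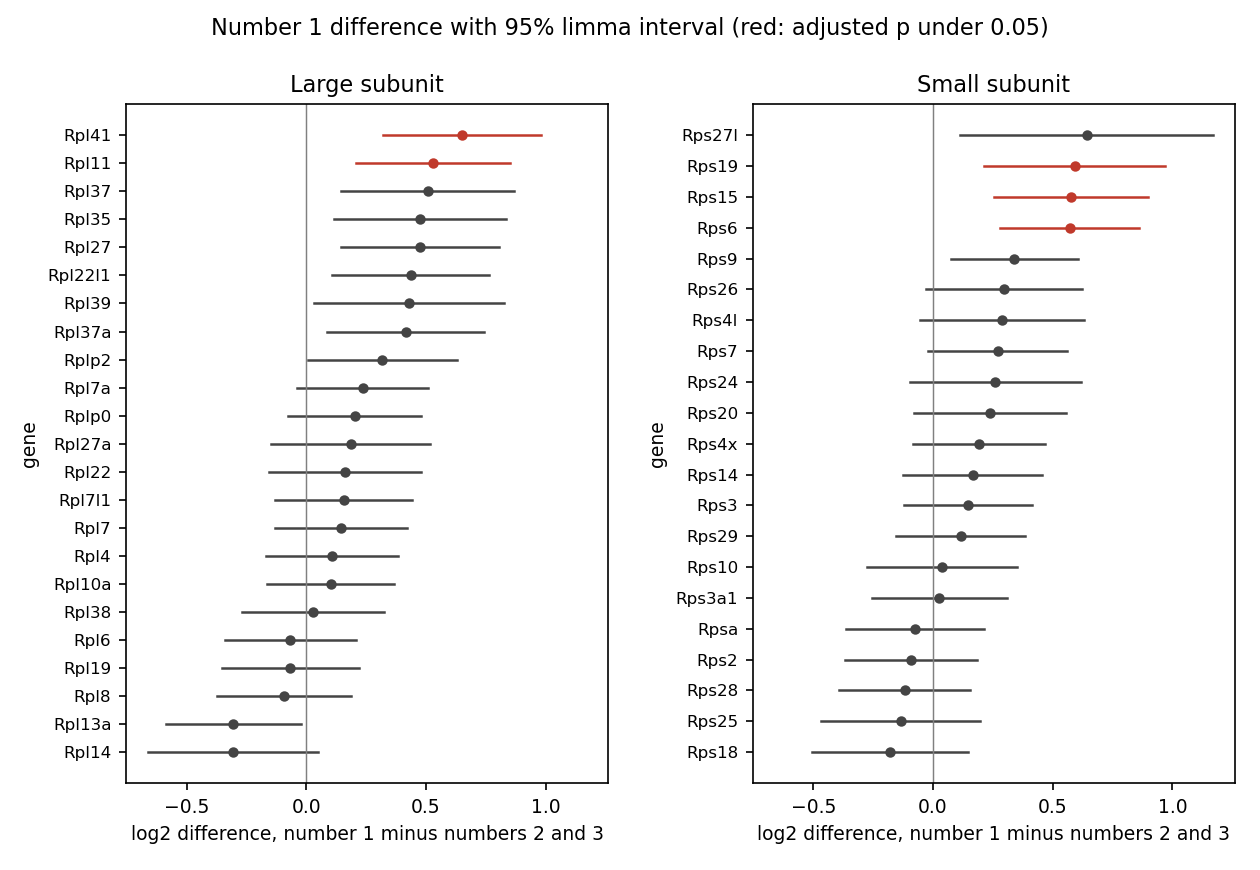
Log2 difference between the arrays numbered 1 and those numbered 2 and 3 (horizontal axis) for each large and small subunit gene (vertical axis), with 95% intervals from limma. Red marks the 5 genes past an adjusted p of 0.05, Rpl41 and Rpl11 in the large and Rps19, Rps15 and Rps6 in the small subunit, while 10 genes lie left of 0.

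The heat map of centred intensities shows that the difference is graded over the members rather than shared by all. Each of the 5 genes that rose was lowest on an array numbered 2. Each of the 10 with a negative difference was highest on an array numbered 3. The median SD over the 6 arrays was 0.17 log2 units for the members, beside 0.20 for all genes.

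**Figure D3:**
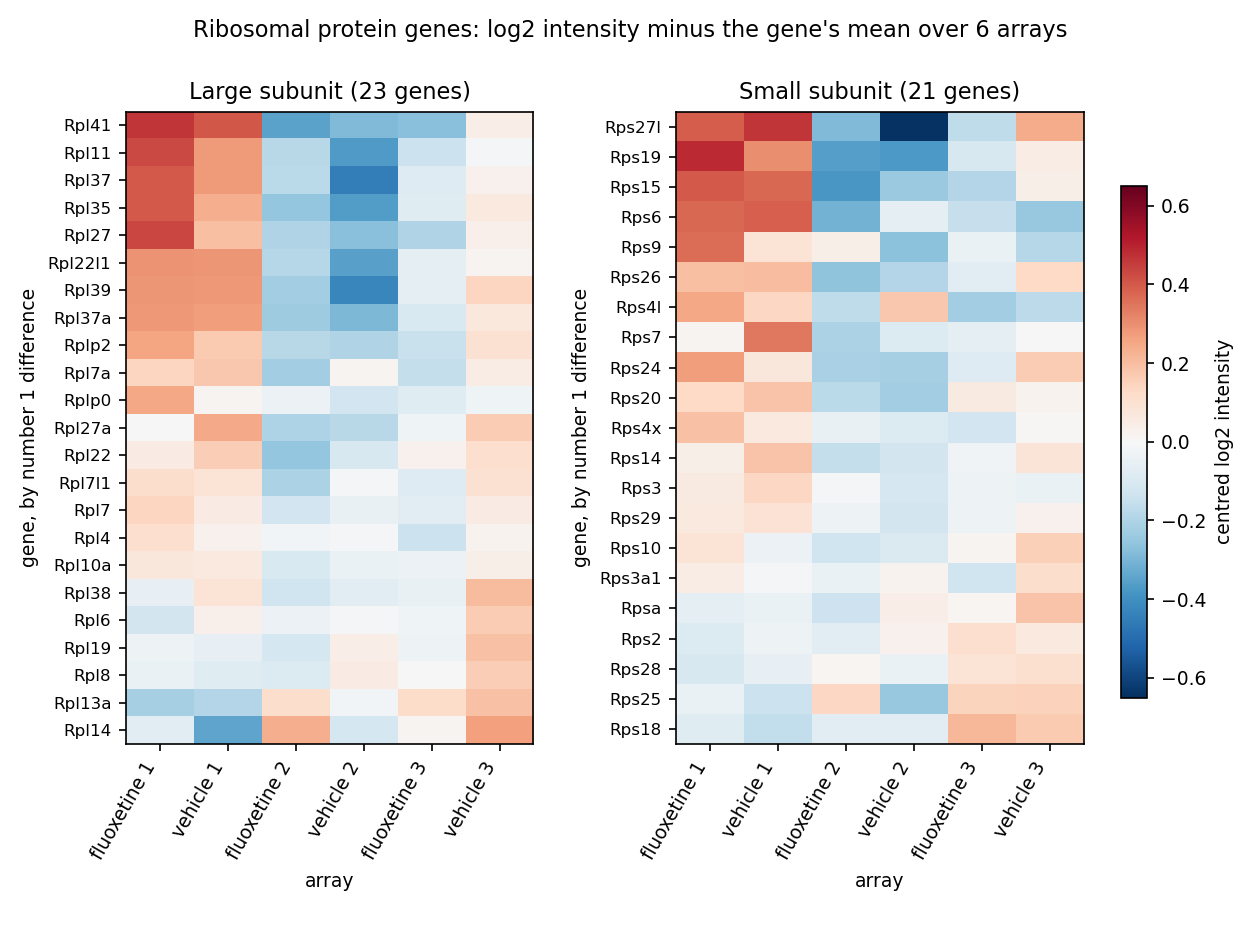
Log2 intensity minus the gene's mean over 6 arrays (colour scale) for 23 large and 21 small subunit genes (rows, ordered by their number 1 difference) on the 6 arrays (columns, ordered by replicate number). The upper rows are red on the 2 arrays numbered 1, and the lowest rows are blue there.

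Probe sets of 1 gene mostly had the same sign. Of all 84 kept probe sets of the members, 70 had a positive number 1 difference, and 10 were called higher and 0 lower. Of the 20 members with more than 1 kept probe set, 15 had only positive differences and 5 had both signs, namely Rpl13a, Rpl22, Rps10, Rps18 and Rps28. The second probe set of Rps15 had the largest difference of any member probe set, 1.16 ± 0.17 (limma adjusted p = 0.00576). That of Rps9 had 0.90 ± 0.17 (adjusted p = 0.0154), where its main probe set had 0.34 ± 0.11. Rps15 and Rps9 are singled out here after their values were seen.

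The design of the probe sets sets the members apart from other genes. Of the 44, 15 (34.1%) used a probe set whose name ends in _x_at, beside 5.36% of all genes. This ending marks probes that can bind related transcripts, and ribosomal protein genes have many near-identical pseudogene copies. The median number 1 difference was 0.26 for these 15, of which 13 were positive. It was 0.17 for the 10 members with an ending of _at, of which 6 were positive, beside 54.5% of all genes. For the 18 ending in _a_at it was 0.17, with 14 positive. By intensity, the 27 members with a mean of at least 10000 had a median of 0.15, and 20 of them were positive, beside a median of 0.012 for the other 417 genes in that range. The 9 members between 1000 and 10000 had a median of 0.41, beside 0.049 for other genes.

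Other genes of translation are described by the same number 1 difference, for which 5.92% of all genes were called higher and 6.86% lower. Of 76 genes of mitochondrial ribosomal proteins, 58 were positive with a median of 0.28, and 11 rose and 1 fell. Mrpl20 (0.85), Mrps6 (0.74) and Mrps5 (0.74) rose, and Mrpl45 (-0.78) fell. Fau, which encodes a ribosomal protein of the small subunit fused to a ubiquitin-like protein and lies outside the naming rule, had 0.42 ± 0.13 (limma adjusted p = 0.0656). Of 19 other genes whose messages carry a TOP sequence, such as elongation factors, 9 were positive, with a median of -0.0085. In limma 0 of them passed. At an unadjusted p under 0.05, 5 were higher (Eif3k, Naca, Gas5, Npm1 and Eef1b2, from 0.39 to 0.52) and 1 lower (Pabpc1, -0.34), named after their values were seen. Whether these genes differ from the members was not tested.

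Of 34 ribosome biogenesis genes 21 were positive, with a median of 0.086 beside 0.037 for all genes, and 2 fell: Nop58, of the complex that methylates ribosomal RNA (-0.70), and Ubtf, which drives ribosomal RNA transcription (-0.55). Of 19 TOR pathway genes 7 were positive, with a median of -0.24, and 4 fell. Ddit4 and Sesn2, stress-induced inhibitors of TOR complex 1, had log2 differences of -1.43 and -1.86. Rptor, the complex's scaffold, fell by 0.54, and Eif4ebp2, a repressor of cap-dependent initiation that is named after its value was seen, by 0.52. On the fluoxetine and vehicle arrays numbered 1, Sesn2 had 52.3 and 60.7 and Eif4ebp2 53.1 and 67.4, near the intensity limit. Their paralogues did not share the sign. Sesn1, Sesn3 and Eif4ebp1, named after their values were seen, had positive differences of 0.37, 0.25 and 0.33, which did not pass. Of 28 initiation and elongation factor genes 13 were positive, with a median of -0.045, and 3 fell: Eif5 (-0.99), Eif2s3x (-0.92) and Eif3a (-0.54). These lists are described and not tested against the members.

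**Figure D4:**
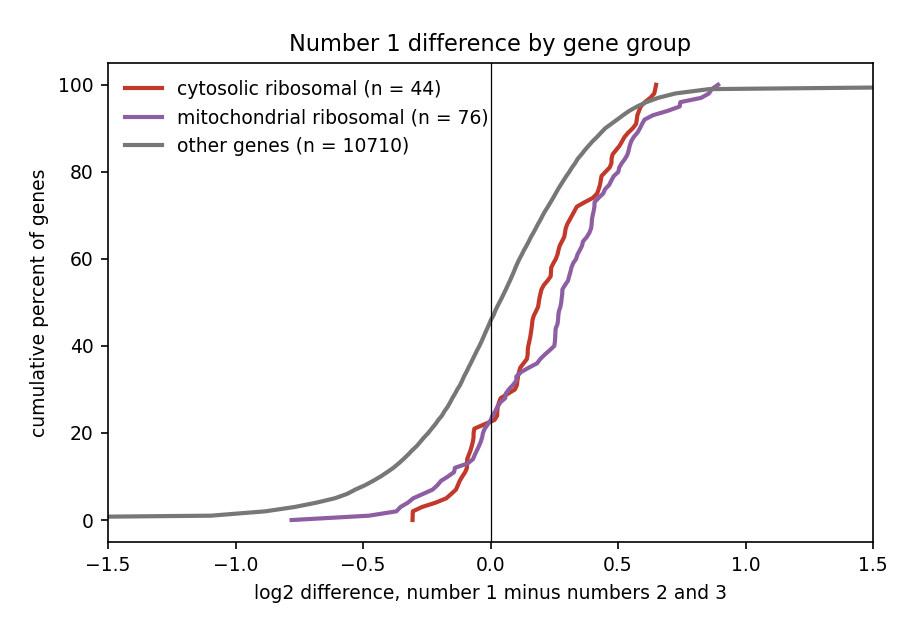
Cumulative percent of genes (vertical axis) against the log2 difference between arrays numbered 1 and those numbered 2 and 3 (horizontal axis), for 44 cytosolic and 76 mitochondrial ribosomal protein genes and all other genes kept. The curves of both ribosomes lie to the right of that of other genes around the middle, with medians of 0.19 and 0.28.

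Some array measures moved with number 1 and others did not. The B1 repeat control had 5476 and 6123 on the fluoxetine and vehicle arrays numbered 1 and between 9469 and 19522 on the others. The ratio of the 3′ to the middle probe set of beta-actin was 4.50 and 4.86 on the arrays numbered 1 and 3.52 to 3.88 on the others, and that of the phe spike-in RNA, 3′ over 5′, was 2.95 and 3.21 against 4.04 to 4.96. The 3′ over 5′ ratio of beta-actin overlapped, with 6.50 and 8.26 against 7.51 to 8.46, as did that of Gapdh, with 1.85 and 2.38 against 2.34 to 3.09. The Gapdh ratio of 3′ over middle overlapped too, with 1.605 and 1.689 against 1.673 to 1.754. So did the 3′ over 5′ ratios of the dap, lys and thr spike-in RNAs. Of the marker lists, none had both arrays numbered 1 above or both below the other 4 in summed intensity. The summed layer 5 markers were 19832 and 18414 on the arrays numbered 1, against 19533 on vehicle array 3 and 16456 to 17339 on the other 3. Of the 10 layer 5 markers kept, 7 had a positive number 1 difference, with a median of 0.11. This was not particular to layer 5. Of the microglia markers kept, 6 of 8 were positive (median 0.465), and of the astrocyte markers 10 of 14 (0.13). For vessels it was 4 of 8 (0.078), for interneurons 6 of 13 (-0.065) and for oligodendrocytes 5 of 13 (-0.077). The 12 microglia markers summed to 3073 and 3459 against 1450 to 3203, and of these P2ry12, Tmem119, Itgam and Trem2 stayed below 50. The part of these measures in the number 1 difference was not tested.

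Start sites are shown for the 5 genes that rose and for 3 members with negative differences, since TOP sequences are the shared control element of these messages. The RefSeq promoter table (GRCm38.p6) held 38 of the 44 members. The search took the longest unbroken run of C and T on the coding strand from 30 bases before to 50 after the annotated start, and capitals mark that run.
Rps6, chr4:86857349-86857378, minus strand: ggaagtcgggCCTCTTTTTCgtgacgcctc
Rpl41, chr10:128549119-128549148, minus strand: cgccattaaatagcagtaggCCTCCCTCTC
Rps15, chr10:80292447-80292476, plus strand: cagcccgtaCTTCCTTTTCCgagtaaccgc
Rpl11, chr4:136053357-136053386, minus strand: cggaagTCTCCCTCTCTCTTCCTgttctcc
Rps19, chr7:24884612-24884641, plus strand: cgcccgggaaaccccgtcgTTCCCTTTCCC
Rpl14, chr9:120571501-120571530, plus strand: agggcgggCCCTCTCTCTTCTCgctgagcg
Rps18, chr17:33955647-33955676, minus strand: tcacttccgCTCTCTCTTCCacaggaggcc
Rps28, chr17:33824566-33824595, minus strand: ctgtcccgaggaTTCCTgggtaccgcgtgc

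The runs in Rps6, Rpl14 and Rps18 span the annotated start. Counted from that start, those of Rpl11, Rps15, Rps19 and Rpl41 began at 13, 25, 39 and 40, and that of Rps28 at -21. The runs of Rpl41 and Rps19 reach the end of the searched window and may be longer. A TOP sequence lies at the start of the message, so a run found in this window need not be one. The median run was 10.5 bases over the 38 members and 6 over 8835 genes with a promoter entry, and a run of at least 8 bases was found in 76.3% of the members and 31.1% of those genes. Genes at both ends of the number 1 difference had such runs, and of the 8 shown Rps28 alone had none. Rpl13a and Rps25, also among the lowest members and not shown, had runs of 14 bases each. Members with a run of at least 8 bases (29) had a median number 1 difference of 0.27 and the 9 with shorter runs one of 0.16. The letters CCGGAA, the core bound by ETS factors, were found on either strand of the 300-base promoter window in 68.4% of members and 30.9% of genes. AANATGGC, a core bound by YY1, was found in 15.8% and 10.2%, and TATAAA in 15.8% and 8.59%.

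Fluoxetine-titled and vehicle-titled arrays were compared next, the question for which the mice were treated. No ribosomal protein gene differed past the threshold, and most differences were small. The median log2 difference, fluoxetine-titled minus vehicle-titled, was -0.041 for the large and -0.016 for the small subunit, beside -0.0068 for all genes, and 28 of 44 members were negative, beside 52.2% of all genes. In limma 0 members were called, with 0 at an unadjusted p under 0.05, against a background of 0% called among all genes and 0.591% at that unadjusted p. With the replicate number as a block, 0 members were called again and 0 had an unadjusted p under 0.05, beside 3.4% of all genes. Differences ranged from -0.17 for Rps7 to 0.24 for Rps9. Without the block, the 95% interval lay within 1.5-fold in either direction for 36 of 44 members, beside 66.0% of all genes. It lay within 2-fold for all 44.

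Rps9 had the largest positive difference of the members. Its intensities were 14167, 11325 and 10711 on fluoxetine arrays 1, 2 and 3 and 11735, 9170 and 9694 on the vehicle arrays, or 12068 ± 1844 and 10200 ± 1355 (SD, n = 3 each). It was the 1 member higher in all 3 numbers, with 0.27, 0.30 and 0.14, though the groups overlap. The log2 difference was 0.24 ± 0.17 (SE), and without probe sets ending in _x_at it was -0.071.

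Rpl6 was the 1 member whose groups did not overlap. It had 13116, 13868 and 13962 on the fluoxetine-titled and 14550, 14129 and 15984 on the vehicle-titled arrays, 13649 ± 464 against 14887 ± 972 (SD, n = 3 each). The difference was -0.12 ± 0.12 on the log2 scale. A single such gene is 1 of 44, where 1.98% of all genes had all fluoxetine-titled values below and 1.63% all above the vehicle-titled ones.

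Among genes with known roles, Rpl10a had a log2 treatment difference of -0.041 ± 0.12 and Rps6 one of -0.056 ± 0.24. The stalk genes Rplp0 and Rplp2 had 0.089 ± 0.14 and -0.049 ± 0.18. For Rpl11 it was 0.070 ± 0.23, for Rps19 0.017 ± 0.26, for Rpl41 -0.11 ± 0.27 and for Rpsa -0.12 ± 0.13. The paralogues Rpl22 and Rpl22l1 had -0.11 ± 0.15 and 0.030 ± 0.21, Rpl7 and Rpl7l1 -0.041 ± 0.13 and -0.12 ± 0.14, and Rps27l -0.042 ± 0.32. These standard errors come from the fit without the block, in which differences between numbers count as error. The 5 genes that rose on the arrays numbered 1 had 0.23 to 0.27, beside a median of 0.16 over the members. With the block they had 0.11 to 0.12, beside a median of 0.11. The other extremes were Rpl7a (-0.16 ± 0.15), Rpl27a (-0.15 ± 0.16), Rpl38 (-0.15 ± 0.13) and Rps15 (-0.11 ± 0.25) on the negative side. On the positive side they were Rps25 (0.16 ± 0.15), Rpl14 (0.13 ± 0.19), Rpl37 (0.094 ± 0.24) and Rps18 (0.040 ± 0.15).

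By replicate number, the members' median difference between fluoxetine-titled and vehicle-titled arrays was largest in size in number 3, which is 1 pair of arrays. In number 1, the median difference was 0.025 for the large and -0.0074 for the small subunit, and in number 2 it was -0.0048 and -0.0092. In these numbers 17 and 23 of 44 members were lower on the fluoxetine-titled array, beside 49.8% and 55.6% of all genes. In number 3 it was -0.17 and -0.064, and all 23 large subunit genes and 15 of 21 small subunit genes were lower on the fluoxetine-titled array. Among all genes, 50.1% were lower in number 3. The large subunit differences in number 3 ran from -0.32 for Rpl41 to -0.050 for Rplp0. Small subunit genes reached from -0.41 for Rps27l to 0.14 for Rps9. Lower values in all 3 numbers were found for 9 members, with 13.1% of all genes as background, and higher values for 1, with 10.9%.

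The test of whether the treatment difference itself differs between number 1 and the others called 0 members in limma, against a background of 0% of genes, and 0 members had an unadjusted p under 0.05, beside 2.55% of genes. Its median was 0.16 for the large and 0.057 for the small subunit. Each number holds 1 array per treatment, so the difference within number 3 has no error of its own.

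**Figure D5:**
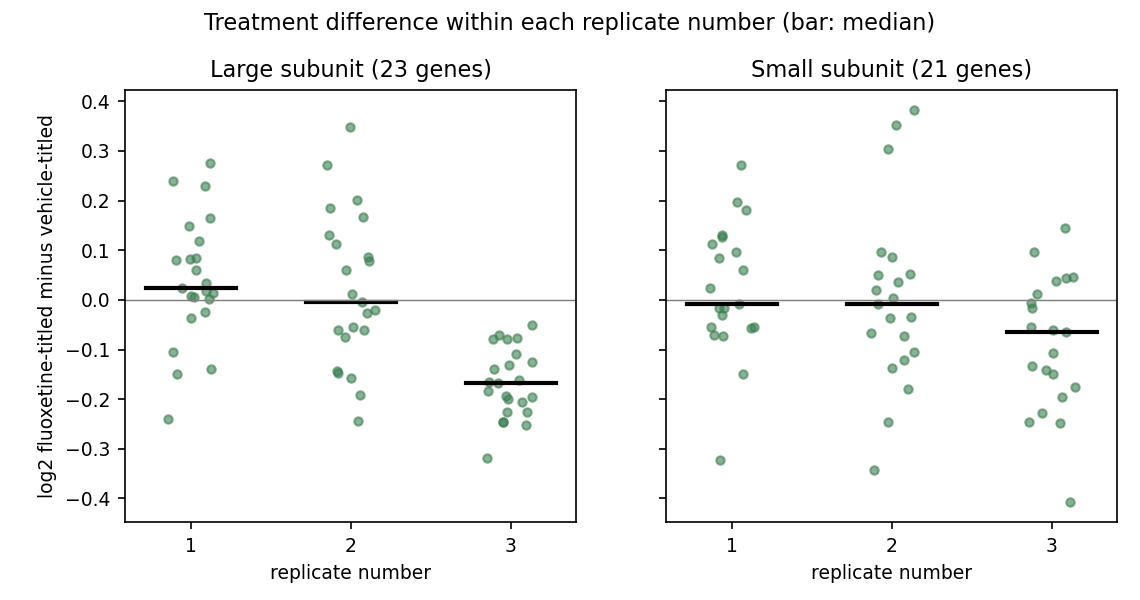
Log2 intensity on the fluoxetine-titled minus the vehicle-titled array of the same replicate number (vertical axis), by number (horizontal axis), for 23 large and 21 small subunit genes. Points are genes and bars medians, and in number 3 every large subunit gene lies below 0 while numbers 1 and 2 have genes on both sides.

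Most markers of other cells moved with number 3, in the opposite direction. Vehicle array 3, on which ribosomal protein messages were higher than on fluoxetine array 3, had the lowest summed astrocyte (37743 against 52272), oligodendrocyte (22405 against 32227), microglia (1450 against 2398) and interneuron markers (32916 against 36372). The summed layer 5 markers were higher on it, at 19533 against 17067. Vessel markers summed to 2730 against 2978, with their lowest sum, 2546, on vehicle array 2. Of the markers kept, 7 of 8 for microglia, 11 of 13 for interneurons, 6 of 8 for vessels and 2 of 10 for layer 5 were lower on vehicle array 3. All 14 astrocyte and all 13 oligodendrocyte markers kept were lower on it. Their median log2 differences, fluoxetine-titled minus vehicle-titled, were 0.73 and 0.54 in number 3. Mitochondrial ribosomal protein genes had the sign of the cytosolic ones there, with a median of -0.25 and 70 of 76 lower. With bulk RNA, fewer cells of a type and less RNA per cell cannot be told apart, and the part of other cells' RNA in the number 3 difference was not tested.

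The 5 members below an intensity of 50 were Rpl3l, Rpl12, Rpl39l, Rps16 and Rps27. The means nearest below the limit were 11.7 and 13.2 for Rps27 in the fluoxetine-titled and vehicle-titled arrays and 10.9 and 8.35 for Rpl39l, a paralogue of Rpl39 known from testis. Nearest above it were Rps25, with 156.0 and 140.5, and Rpl39, with 267.0 and 269.2, so no member lay close to the limit. Rpl3l, a paralogue of Rpl3 known from striated muscle, had 6.2 and 6.5. The single named probe sets of Rpl12 and Rps16 had 6.47 and 6.17 and 4.16 and 4.22. As their proteins are part of every ribosome, an intensity this low is a value of that probe set and was not read as the level of the gene. The low means of Rps27 were likewise taken as values of its probe set and not as the level of the gene. The means of Rps25, Rpl39 and Rps6 were also far below those of most members, so their differences too are values of those probe sets.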

How the data were processed

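The deposited table holds 1 GCRMA intensity per probe set and array on a linear scale, made by the authors with the GCRMA method, per the labels and the series design text. No version or setting was found in them. GCRMA uses probe sequence to subtract background and equalises the arrays, which removes differences in total RNA. The design text speaks of averaged replicates, but the table has 1 column per array.

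Groups and replicate numbers came from titles. Of 45101 probe sets, 64 controls were left out and 19073 kept where a group mean reached 50. The platform annotation gave 34945 probe sets 1 symbol, 932 several and 9160 none listed. Deposited intensities were turned to log2 and tested with limma 3.58.1 (lmFit, eBayes, R 4.3.3), with two-sided p-values adjusted over all 19073 by Benjamini-Hochberg. P-values measure the spread between these arrays, which the labels call biological replicates.

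Same-numbered arrays deviated together from their treatment means, with correlations of 0.74, 0.60 and 0.50 against -0.59 to 0.26 for other pairs, so titles' numbers were taken to pair the samples.

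Members and lists were chosen with earlier results of these data known. Genes were named by role, as the 3 highest and 3 lowest of each subunit in each comparison, as members called, as members without overlap and as those nearest the limit of 50. In other lists, up to 3 called genes per direction were named. Tested on simulated data (10 sets, 200 of 19073 probe sets changed), the number 1 fit found 26.5%, 94.8% and 99.9% of changes of 1.5, 2 and 4 fold, and 7.12% of its calls were false. For treatment these shares were 0%, 18.8% and 87.3% without and 41.9%, 96.4% and 99.7% with the block. The arrays simulated for the number 1 fit had independent noise, without the likeness of same-numbered arrays seen in the data. The shares of that fit therefore need not hold for these data. Alternatives covered normalization, filter, log offset, variance model, probe set choice, block and arrays left out. A description by coding length was not analysed here.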

Additional observations from a re-analysis of the deposited data

Results flagged for a closer look

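In 3 of 31 values tested, 1 of the 4 arrays numbered 2 and 3 stood far from the other 3, and chance flags about 1 in 20 such groups. For Rpl6 the gap took 0.868 of the range, with 15984 on vehicle array 3 against 13868 to 14129. For Rplp2 both arrays numbered 2 and fluoxetine array 3 lay between 18408 and 19038 and vehicle array 3 at 22565, a gap of 0.835. For Rps25 vehicle array 2 had 124.2 and the others 161.9 to 163.5, a gap of 0.966.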

How the results depend on the processing

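Leaving out 1 array gave between 0 and 12 members called higher in the number 1 difference, 13 to 1639 probe sets called higher and 266 to 1910 lower, in place of 5, 1187 and 1723. Members called higher numbered 3 after quantile normalization, 1 without a filter, 9 without the title treatment in the fit, and 11 with an intensity trend (1 lower then) or with the number as 3 levels. Probe sets called higher numbered 630 without a filter and 1946 with 3 levels, and those called lower 1068 without a filter. With the mean of all probe sets of a gene, tested over 10830 genes, 588 genes were called higher and 868 lower, beside 641 and 743 genes by their single probe set. The subunit medians of that difference were positive in all fits run, from 0.14 to 0.26 (large) and 0.14 to 0.23 (small) with arrays left out. With arrays or numbers left out, the treatment median ranged from -0.13 to 0.037 for the large and from -0.12 to 0.037 for the small subunit. The latter was -0.056 without probe sets ending in _x_at, where the interaction median of the small subunit was 0.16. The replicate block changed no call, with 0 members and 0 probe sets called (smallest adjusted p = 0.993).

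Single treatment differences turned sign for Rpl13a with the mean of probe sets (-0.029) and without _x_at (-0.11), for Rpl39 with centred arrays (-0.0018), for Rpl7 (0.039) and Rps9 (-0.071) without _x_at, for Rps18 with the mean (-0.0061) and for Rps28 after quantile normalization (0.013). Number 1 differences turned for Rpl13a without _x_at (0.014), Rpl38 after quantile normalization (-0.0013) and Rps28 with the mean (0.021). With arrays left out, number 1 ranges crossed 0 for Rpl38 (-0.030 to 0.086), Rpl8 (-0.19 to 0.0021) and Rpsa (-0.16 to 0.0041). Treatment ranges did so for Rpl11 (-0.13 to 0.23), Rpl13a (-0.081 to 0.12), Rpl14 (-0.013 to 0.31), Rpl22l1 (-0.14 to 0.18), Rpl37 (-0.11 to 0.26), Rpl39 (-0.21 to 0.14), Rpl41 (-0.36 to 0.069), Rpl7 (-0.12 to 0.011), Rplp0 (-0.014 to 0.16), Rplp2 (-0.19 to 0.048), Rps15 (-0.34 to 0.046), Rps18 (-0.057 to 0.13), Rps19 (-0.22 to 0.20), Rps27l (-0.37 to 0.18), Rps28 (-0.051 to 0.046), Rps3 (-0.039 to 0.082) and Rps6 (-0.26 to 0.12). The causes were not tested. The number of arrays limits the precision.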
